A study of Mus musculus with 5 samples.

Results

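Arterial endothelial cells of the adult mouse heart were picked out of single-cell RNA libraries by their transcripts. A cell was taken when it had Cdh5 or Pecam1 (endothelial junction genes), Fbln5 (fibulin 5, an elastic fibre protein) and at least 2 of the 5 genes Gja4, Gja5, Sox17, Hey1 and Stmn2. It also had to have Npr3, an endocardial gene, below 1.5 on the deposited scale (natural log of 1 plus UMIs per 10000). Apln, Prox1, Pdgfra and Ptprc had to be at 0, which leaves out tip-like, lymphatic, fibroblast-like and leukocyte cells. The rule found 143 arterial cells among 10961 cells. They were described against capillary cells of the same library, defined by Cdh5 and Gpihbp1 (the capillary anchor of lipoprotein lipase) above 0 and Fbln5 at 0, of which there were 2470.

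The libraries were made with droplet-based 3-prime chemistry from hearts that were minced and digested with collagenase, freed of cardiomyocytes and sorted for cKit and DDR2 on the cell surface. Of the 5 libraries, 2 came from the cKit+/DDR2- sort (replicates 1 and 2). The sorts cKit-/DDR2+, cKit+/DDR2+/CD45- and cKit+/DDR2+/CD45+ gave 1 each. All were labelled cardiac interstitial cells of adult mice with no treatment or genetic change named. The labels say nothing of strain, sex, number of animals or pooling, so differences between libraries may be technical, and in sorts with 1 library the sort and the library cannot be told apart.

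As background, arterial endothelium lines the vessels that carry blood towards the capillary bed, and is set apart from venous and capillary endothelium by Notch signalling (ligands such as Dll4 and Jag1, targets such as Hey1) and by SoxF transcription factors such as Sox17. Its cells are joined by the gap junction proteins connexin 37 (Gja4) and connexin 40 (Gja5), carry the ligand ephrin B2 (Efnb2) and lie on an elastic lamina beside smooth muscle. In the heart, capillary endothelium takes up fatty acids for the muscle, through genes such as Lpl, Cd36 and Fabp4.

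The libraries held 436 to 3898 cells with median depths of 7529 to 10972 UMIs (unique molecular identifiers, counted transcripts). The cKit+/DDR2- replicate 1 and cKit+/DDR2+/CD45+ libraries shared 190 cell barcodes, while other pairs shared 1 to 3. The shared barcodes had a median of 12134 UMIs in the first and 622.5 in the second, about 5.21% of the UMIs of the same barcode. None of them was an arterial cell in either library, and neither library had enough arterial cells to enter a test. The arterial cells lay in cKit-/DDR2+ (100 cells), cKit+/DDR2+/CD45- (23), cKit+/DDR2- replicate 2 (16), cKit+/DDR2+/CD45+ (3) and cKit+/DDR2- replicate 1 (1). Their UMIs summed to 625903, 158132 and 104071 in cKit-/DDR2+, cKit+/DDR2+/CD45- and cKit+/DDR2- replicate 2, and a gene with 0 UMIs there could have had up to 4.79, 19 and 28.8 CPM (counts per 1000000 UMIs of the class), a limit for counting error only.

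The genes that chose the cells are described here without a test. Values of 3 libraries are given throughout in the order cKit-/DDR2+, cKit+/DDR2+/CD45- and cKit+/DDR2- replicate 2. Fbln5 was at 420.2, 417 and 490.1 CPM in the arterial cells. Stmn2, a microtubule regulator, was seen in 98, 91.3 and 100% of arterial and 37.3, 19.9 and 22.9% of capillary cells. Sox17 was seen in 77, 91.3 and 81.2% of arterial cells, against 36.5, 25.1 and 16% of capillary cells. The Notch target Hey1 was seen in 87, 69.6 and 81.2% of arterial and 23.7, 12.5 and 18.8% of capillary cells. These 3 genes were therefore also found in part of the capillary cells. Of the connexins, Gja4 was seen in 66, 78.3 and 62.5% of arterial and 6.71, 9.92 and 12.3% of capillary cells. Gja5, the rarest of the genes, was seen in 18, 26.1 and 31.2% of arterial and 0.395, 0.752 and 0.593% of capillary cells. Of all arterial cells, 23 had 2 of the 5 genes, 47 had 3, 53 had 4 and 20 had all 5.

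Promoter windows from RefSeq (GRCm38.p6, 250 bases before to 50 bases after a transcript start) were searched on both strands for TGGGAA, the core bound by the Notch effector RBPJ, and for ACAAT, a core bound by SOX factors. The following windows are shown because Sema3g had the largest difference from capillary cells and Gja4 and Fbln5 helped to choose the cells. Capitals mark a match, TTCCCA and ATTGT being the same cores read on the other strand.
Sema3g promoter, chr14:31217623-31217922, plus strand: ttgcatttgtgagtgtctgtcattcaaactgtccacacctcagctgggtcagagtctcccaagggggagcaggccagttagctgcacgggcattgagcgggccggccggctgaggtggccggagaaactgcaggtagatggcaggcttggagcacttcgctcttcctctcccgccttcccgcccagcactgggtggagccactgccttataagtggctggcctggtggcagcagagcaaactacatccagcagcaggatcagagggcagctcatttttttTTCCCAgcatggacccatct
Gja4 promoter, chr4:127313990-127314289, minus strand: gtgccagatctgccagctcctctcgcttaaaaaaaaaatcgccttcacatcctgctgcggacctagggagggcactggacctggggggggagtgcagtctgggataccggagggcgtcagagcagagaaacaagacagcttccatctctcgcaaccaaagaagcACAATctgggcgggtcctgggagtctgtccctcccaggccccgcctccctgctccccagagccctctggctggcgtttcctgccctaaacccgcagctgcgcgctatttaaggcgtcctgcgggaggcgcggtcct
Fbln5 promoter, chr12:101819070-101819369, minus strand: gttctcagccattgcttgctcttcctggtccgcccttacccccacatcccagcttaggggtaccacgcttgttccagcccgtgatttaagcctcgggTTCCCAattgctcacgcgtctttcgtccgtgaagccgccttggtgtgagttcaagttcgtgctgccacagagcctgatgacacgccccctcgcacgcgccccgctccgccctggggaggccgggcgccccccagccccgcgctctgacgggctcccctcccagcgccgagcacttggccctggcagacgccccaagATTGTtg

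TGGGAA was held by 25.6% of all 32851 windows and ACAAT by 31.0%. Of 29 genes asked (the genes named below as highest against capillary cells and the arterial list genes that passed the test), 22 had a window. Their 29 windows held TGGGAA in 6 (20.7%; Alox12, Col18a1, Crip1, Nebl, Pcsk5 and Sema3g) and ACAAT in 4 (13.8%; Alpl, Edn1, Nebl and Unc5b). The shares were thus no larger than among all promoters. A match is a run of letters, not a measured site.

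Cells at the edges of the rule were few on one side and many on another. In cKit-/DDR2+, 14 arterial cells had exactly 2 of the 5 genes and 12 further cells had exactly 1 and met the rest of the rule. Their median Fbln5 was 1.34 and 1.08 on the deposited scale. Those with 1 gene had 15.2, 0 and 50.5 CPM of Sema3g, an arterial gene the rule does not use, against 182, 157 and 283 CPM in those with 2. A larger fringe lay at the Fbln5 threshold. There were 387 cells with at least 2 of the 5 genes and no Fbln5 UMI, of which 359 met the definition of capillary cells. Over the cells with no Fbln5 UMI, Sema3g was at 59.8, 56.3 and 56.1 CPM and Aqp1, the water channel of capillary endothelium, at 555, 569 and 698 CPM. Both values lay between those of arterial and capillary cells in cKit-/DDR2+ and cKit+/DDR2+/CD45-, while Aqp1 in the third library was above the capillary value of 586 CPM. Npr3 left out 1, 2 and 2 cells that were otherwise arterial. The capillary marker Gpihbp1 was seen in 128 of the 143 arterial cells.

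Arterial cells made up the largest share of endothelial cells in the cKit-/DDR2+ sort. There they were 100 of 1186 endothelial cells (Cdh5 or Pecam1 seen, Pdgfra and Ptprc at 0), or 8.43% (95% exact binomial interval 6.91 to 10.2). In cKit+/DDR2+/CD45- the share was 1.93% (1.23 to 2.89). The cKit+/DDR2- libraries gave 0.259% (0.00656 to 1.43) and 0.829% (0.475 to 1.34), and cKit+/DDR2+/CD45+ gave 1.18% (0.244 to 3.41). With every cell thinned to 4000 UMIs and shallower cells left out, the shares were 8.72% in cKit-/DDR2+, 1.70% in cKit+/DDR2+/CD45-, 0% (0 of 347 cells, exact upper bound 1.06%) and 0.662% in cKit+/DDR2- replicates 1 and 2, and 0.667% in cKit+/DDR2+/CD45+. The intervals cover counting error only, and the gates can set these shares, since cKit and DDR2 antibodies chose the cells. Kit itself was at 1.60, 0 and 0 CPM in arterial cells, that is 1, 0 and 0 UMIs, also in the cKit+ sorts. Ddr2 stood at 17.6, 25.3 and 28.8 CPM, at most 11 UMIs in a library.

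**Figure D1:**
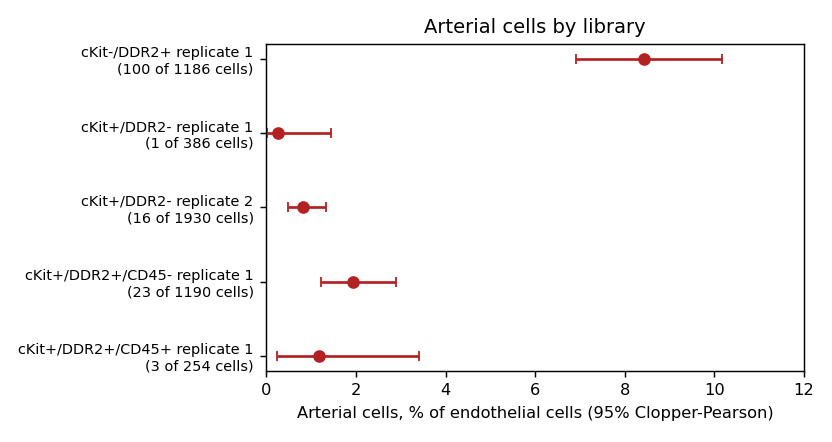
Arterial cells as a percentage of endothelial cells in each library (points) with 95% Clopper-Pearson intervals (bars). The cKit-/DDR2+ point at 8.43% lies above the intervals of the other 4 libraries, none of which reaches 4%.

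Against capillary cells, arterial cells had more transcripts of Sema3g, Alpl, Vegfc and most other arterial identity genes tested. They had fewer of the capillary gene Aqp1, and fewer of Aplnr and most other venous genes tested. In a limma fit over the libraries with at least 20 cells of each class (cKit-/DDR2+ and cKit+/DDR2+/CD45-, library as a block), 208 of 6013 genes tested were higher in arterial cells (3.46%) and 206 were lower (3.43%), at a Benjamini-Hochberg adjusted p under 0.05. At a 2-fold difference or more, 133 were higher and 143 lower. Genes of the rules took no part. With 2 libraries the fit has 1 residual degree of freedom, and its errors rest on the spread pooled over genes alone. The SE and adjusted p of a gene therefore do not measure how far its own 2 libraries differed. For this reason a fit that added cKit+/DDR2- replicate 2 (16 arterial cells) was set beside the 2-library fit. That fit called 108 genes higher and 80 lower (1.79% and 1.32% of 6040), of which 108 and 79 were among those of the first fit. The log2 differences below are those of the 2-library fit, on the log2(CPM + 5) scale, with the adjusted p of the 3-library fit named where given.

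The third library gave a reading of the same genes in cells that the 2-library fit had not used. Of the 208 higher genes, 193 (92.8%) were also higher in arterial cells of cKit+/DDR2- replicate 2, where 50.3% of all genes tested were. Of the 206 lower genes, 176 (85.4%) were lower there, against 49.6% of all genes tested.

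**Figure D2:**
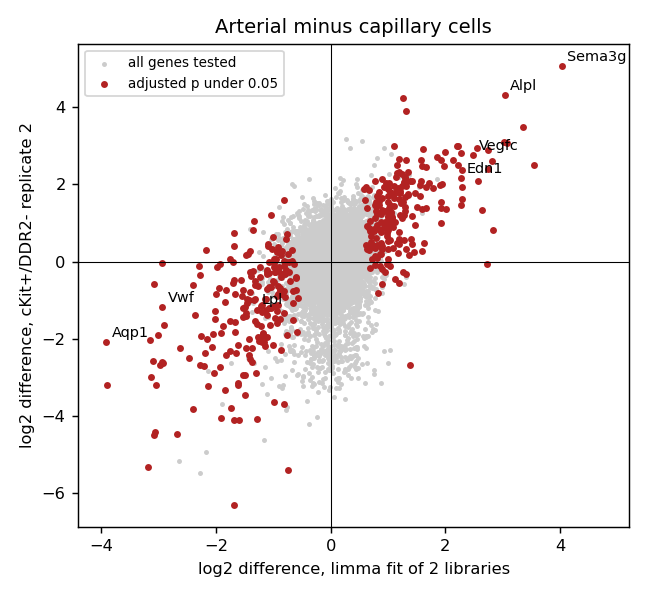
Log2 difference between arterial and capillary cells in the limma fit of 2 libraries (horizontal axis) and in cKit+/DDR2- replicate 2, which was not in that fit (vertical axis), for all 6013 genes tested (grey) and those called (red). Of the genes called higher, 193 of 208 lie above 0 on the vertical axis, with Sema3g and Alpl at the top right and Aqp1 at the far left.

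Among genes of arterial identity that the rule did not use, 17 of 23 tested were higher in arterial cells and 0 lower by limma (17 and 1 at an unadjusted p under 0.05), with a median log2 difference of 1.11 (0.02 over all genes tested), and 15 were higher in the 3-library fit. Sema3g, a secreted semaphorin, had the largest difference of all: it was at 275, 430.0 and 442 CPM in arterial cells and 24.3, 10.5 and 8.33 CPM in capillary cells. No arterial value overlapped a capillary one, and the log2 difference was 4.03 ± 0.26 (SE, the standard error), adjusted p = 2.06e-49 (3-library fit, adjusted p = 0.000722). In cKit-/DDR2+, Sema3g was seen in 68% of arterial and 8.98% of capillary cells, or 64% and 8.14% after thinning to 4000 UMIs. Alpl, the tissue-nonspecific alkaline phosphatase, was at 334, 304 and 288 CPM in arterial cells and 66.8, 16.7 and 9.79 CPM in capillary cells (3.04 ± 0.25 SE, adjusted p = 4.17e-31). Arterial values of Alpl lay close together and the capillary ones were all lower, though spread from 9.79 to 66.8 CPM. Efnb2 was at 267, 443 and 480.4 CPM in arterial cells and 131, 122 and 109 CPM in capillary cells (1.41 ± 0.22 SE, adjusted p = 1.65e-08). Mecom, a zinc finger transcription factor of arterial cells, was at 490.5, 594 and 480.4 CPM in arterial cells and 214, 121 and 114 CPM in capillary cells (1.71 ± 0.21 SE, adjusted p = 1.21e-13). For both genes the groups did not overlap. The share of all genes tested without such overlap is not given, here or below. Genes ranked by size of difference had to be on the same side in all 3 libraries, so for them a lack of overlap follows in part from that choice.

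The list also held receptors and hypoxia factors. Epas1 (HIF-2 alpha) differed by 1.11 ± 0.19 SE, adjusted p = 8.98e-07, the netrin receptor Unc5b by 1.14 ± 0.25 SE, adjusted p = 0.000199 and the taurine transporter Slc6a6 by 1.29 ± 0.19 SE, adjusted p = 3.15e-09. Each was higher in arterial cells in all 3 libraries. Cxcr4, the receptor of Cxcl12, was called (1.16) but had an adjusted p of 0.0566 in the 3-library fit. Clu, Tm4sf1, Sat1, Crip1 and Sox18 were also called higher. Bmx, a kinase gene often used as an arterial marker, was not called: it was at 32, 44.3 and 67.3 CPM in arterial cells and 6.02, 59.2 and 128 CPM in capillary cells. It was higher in arterial cells in cKit-/DDR2+ only. With capillary cells that also passed the Npr3, Apln, Prox1, Pdgfra and Ptprc limits, Bmx differed by 1.74 (adjusted p = 0.0261). Nrp1, Mgp, Sox7, Cdh13 and Rhob were not called either. Of the 9 arterial markers used to check the label (Sema3g, Bmx, Efnb2, Vegfc, Dll4, Mecom, Unc5b, Alpl and Edn1), 8 were higher, with Bmx the exception.

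The capillary definition sets no limit on Npr3, Apln, Prox1, Pdgfra or Ptprc. Of the capillary cells, 12 of 1013, 105 of 665 and 187 of 506 had Npr3 at or above 1.5, and Apln was seen in 91, 108 and 37. Without cells that had any of these markers, 831, 425 and 231 capillary cells remained, and 177 of the 208 higher and 168 of the 206 lower genes were called again. Against these stricter capillary cells 208 of 5972 genes were higher (3.48%) and 215 lower (3.60%) by limma, and their counts are given below where they differ most.

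**Figure D3:**
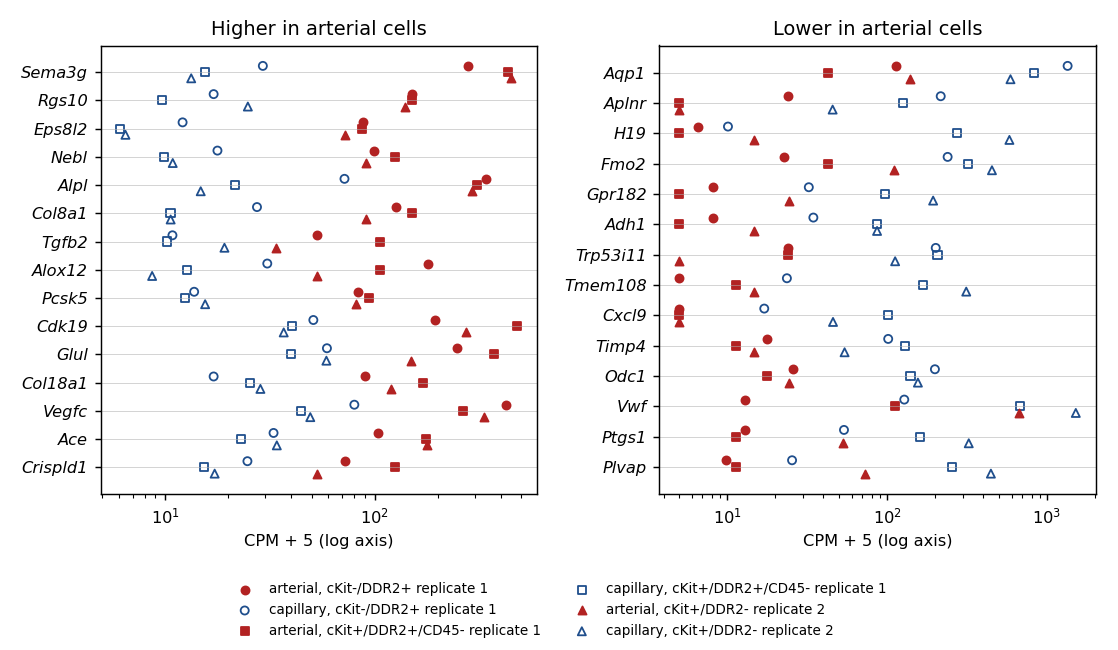
Genes with the largest called differences (15 higher and 14 lower), as CPM + 5 on a log axis, in arterial (filled) and capillary cells (open) of cKit-/DDR2+ (circles), cKit+/DDR2+/CD45- (squares) and cKit+/DDR2- replicate 2 (triangles). Arterial and capillary symbols do not overlap for Sema3g, Alpl, Vegfc or Aqp1, while for Vwf both classes are higher in the cKit+ libraries.

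Secreted growth factors and signalling proteins were among the largest differences. Vegfc, a ligand of the receptor Flt4, was at 417, 259 and 327 CPM in arterial cells and 75, 39.5 and 44.3 CPM in capillary cells (2.48 ± 0.24 SE, adjusted p = 6.51e-23; 3-library fit, adjusted p = 0.000722). Edn1, the precursor of the vasoconstrictor endothelin 1, was at 118, 139 and 240.2 CPM in arterial cells and 26.3, 19.1 and 49.7 CPM in capillary cells (2.28 ± 0.29 SE, adjusted p = 3.61e-13). Ace, the angiotensin-converting enzyme, was at 99.1, 171 and 173 CPM in arterial cells and 27.9, 18 and 29.1 CPM in capillary cells (2.30 ± 0.28 SE, adjusted p = 1.88e-13). For all 3 genes every arterial value lay above every capillary value. Tgfb2, a TGF-beta ligand, was at 47.9, 101 and 28.8 CPM in arterial cells and 5.84, 5.24 and 14.2 CPM in capillary cells. Its log2 difference was 2.83 ± 0.45 SE, adjusted p = 3.78e-08, with an adjusted p of 0.0562 once the third library, where the gap was narrower, was added.

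Of 20 genes for VEGF, angiopoietin, PDGF, FGF and IGF-binding proteins tested, 8 were higher (Vegfc, Flt1, Pdgfa, Pdgfd, Ptprb, Igfbp3, Igfbp4 and Fgfr3) and 2 lower (Nrp2 and Igfbp5). In the 3-library fit 5 were higher and 2 lower. Igfbp4 was higher in arterial cells in cKit-/DDR2+ only (224 against 46.9 CPM), and had an adjusted p of 0.831 in the 3-library fit. Flt1, the VEGF receptor 1, differed by 0.63 and Ptprb, the phosphatase of the Tie2 receptor, by 0.84. Kdr, VEGF receptor 2, was not called, at 797, 797 and 577 CPM in arterial cells and 1062, 951 and 533 CPM in capillary cells. Of 18 TGF-beta and BMP genes, 6 were higher (Tgfb2, Acvrl1, Bmp4, Smad6, Smad7 and Ltbp4) and 2 lower (Bmp6 and Smad1), against 3 and 2 in the 3-library fit. Acvrl1, the ALK1 receptor, was at 380.2, 335 and 365 CPM in arterial cells and 219, 113 and 100.4 CPM in capillary cells (1.16 ± 0.22 SE, adjusted p = 5.84e-06). The inhibitory Smad6 was at 171, 259 and 298 CPM in arterial cells and 52.6, 84.3 and 113 CPM in capillary cells (1.59 ± 0.24 SE, adjusted p = 5.47e-09), again without overlap.

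Of 14 Notch pathway genes tested, 6 were higher (Notch1, Notch3, Dll4, Jag1, Jag2 and Ltbp4) and 1, the target Hes1, was lower, with a median of 0.50. Ltbp4, a latent TGF-beta binding protein, is not a component of the pathway and is also counted under elastic fibre and TGF-beta genes. Notch3 is also a mural marker, at 113 CPM in arterial cells of cKit-/DDR2+ (71 UMIs) and 12.6 CPM in those of cKit+/DDR2+/CD45- (2 UMIs), and was not abundant enough to be tested once cells with mural markers were left out. In the 3-library fit 2 were higher and 0 lower, and against the stricter capillary cells 3 were higher (Jag1, Notch1 and Ltbp4) and 1 lower. The ligand Jag1 was at 63.9, 253 and 154 CPM in arterial cells and 34.1, 27.5 and 35.3 CPM in capillary cells (1.90 ± 0.28 SE, adjusted p = 6.06e-10). It was highest in arterial cells of cKit+/DDR2+/CD45-. The ligand Dll4 was at 238, 171 and 192 CPM in arterial cells and 140.4, 87.2 and 58.5 CPM in capillary cells (0.84 ± 0.23 SE, adjusted p = 0.00755), but against the stricter capillary cells it had an adjusted p of 0.0574. The receptor Notch1 differed by 0.82, with an adjusted p of 0.177 in the 3-library fit, while Notch4 and the effector Rbpj were not called.

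Genes of the vessel wall were called in both directions. Of 7 elastic fibre genes, 3 were higher (Eln, Fbln2 and Ltbp4) and 0 lower by limma (4 and 1 at an unadjusted p under 0.05), and 2 were higher in the 3-library fit. Elastin (Eln) was at 60.7, 101 and 269 CPM in arterial cells and 32.1, 41.8 and 89.1 CPM in capillary cells. The ranges overlapped, although Eln was higher in arterial cells within each library (1.00 ± 0.29 SE, adjusted p = 0.0109). Fbln2 was at 374, 424 and 644 CPM in arterial cells and 141, 88 and 169 CPM in capillary cells (1.79 ± 0.22 SE, adjusted p = 1.19e-13) without overlap. Of 22 basement membrane and matrix genes, 5 were higher and 6 lower, with a median of -0.52, against 4 and 3 in the 3-library fit. Against the stricter capillary cells 6 were higher and 8 lower. Dcn, lower against all capillary cells, was then called higher. The short-chain collagen Col8a1 was at 121, 145 and 86.5 CPM in arterial cells and 22.5, 5.62 and 5.63 CPM in capillary cells (3.01 ± 0.31 SE, adjusted p = 1.49e-19), Col18a1, which holds endostatin, at 84.7, 164 and 115 CPM in arterial cells and 12.1, 20.4 and 23.5 CPM in capillary cells (2.57 ± 0.30 SE, adjusted p = 1.09e-14), and fibronectin (Fn1) at 236, 417 and 336 CPM in arterial cells and 65.9, 83.5 and 128 CPM in capillary cells (2.01 ± 0.23 SE, adjusted p = 1.28e-15). In none of these 3 did the groups overlap. On the other side, the laminin chain Lama4 differed by -1.37 ± 0.25 SE, adjusted p = 3.06e-06, Lamb1 by -1.14 ± 0.28 SE, adjusted p = 0.00118, and the inhibitor Timp4 by -3.01 ± 0.34 SE, adjusted p = 6.13e-16.

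The remaining genes with the largest differences fall outside these pathways. Rgs10, a regulator of G protein signalling, was at 145, 145 and 135 CPM in arterial cells and 12.1, 4.68 and 19.8 CPM in capillary cells (3.55 ± 0.33 SE, adjusted p = 1.38e-24). Eps8l2 and nebulette (Nebl) bind actin, and differed by 3.35 ± 0.46 SE, adjusted p = 7.25e-11 and 3.07 ± 0.35 SE, adjusted p = 1.24e-15. Cdk19, a kinase of the Mediator complex, was at 189, 474 and 269 CPM in arterial cells and 46, 35.2 and 31.8 CPM in capillary cells (2.75 ± 0.24 SE, adjusted p = 3.9e-26). Glul (glutamine synthetase) differed by 2.64, Alox12 (a lipoxygenase of arachidonate) by 2.81, Pcsk5 (a proprotein convertase) by 2.75 and Crispld1 by 2.29. All of these kept an adjusted p under 0.05 in the 3-library fit.

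Capillary genes differed among themselves. Of 21 genes of capillaries and fatty acid uptake tested, 6 were lower (Fabp5, Lpl, Car4, Aqp1, Ccdc85a and Timp4) and 2 higher (Rbp7 and Cxcl12), with a median of -0.29. Aqp1 was at 109, 37.9 and 135 CPM in arterial cells and 1340.4, 819 and 586 CPM in capillary cells, with the groups far apart (-3.91 ± 0.21 SE, adjusted p = 3.21e-69; 3-library fit, adjusted p = 0.00157). Lpl, lipoprotein lipase, was at 369, 373 and 231 CPM in arterial cells and 1025, 819 and 553 CPM in capillary cells (-1.29 ± 0.20 SE, adjusted p = 5.49e-09), and Car4, a membrane carbonic anhydrase, differed by -2.40 ± 0.27 SE, adjusted p = 2.12e-16. The fatty acid genes Cd36 and Fabp4 were not called against all capillary cells: Cd36 was at 1836, 3819.6 and 3104 CPM in arterial cells and 2958, 3218 and 1562 CPM in capillary cells, higher in arterial cells of the cKit+ libraries and lower in cKit-/DDR2+. Fabp4 was at 11046, 14994 and 9157 CPM in arterial cells and 19498, 18004 and 9416 CPM in capillary cells. Against the stricter capillary cells 11 of 21 were lower and 2 higher, with Cd36 (-0.51, adjusted p = 0.0124), Fabp4 (-0.82, adjusted p = 2.70e-07), Kdr (-0.57) and Rgcc (-0.64) then among those lower. Rbp7, a retinol-binding protein of heart capillaries, was higher in arterial cells of all 3 libraries, at 3919, 3927 and 3853 CPM in arterial cells and 1913, 1415 and 802 CPM in capillary cells (1.25 ± 0.19 SE, adjusted p = 1.83e-09), as was the chemokine Cxcl12 (1.01 ± 0.19 SE, adjusted p = 3.18e-06). Trp53i11 (-3.08), Odc1, the rate-limiting enzyme of polyamine synthesis (-2.97), and Fmo2, a flavin monooxygenase (-3.15), were among the largest lower differences. Genes were ranked there only if they were lower in each of the 3 libraries.

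Among lists with at least 5 genes tested, venous genes had the largest share of lower members. Of 10 tested, 8 were lower and 0 higher by limma (9 and 0 at an unadjusted p under 0.05), with a median of -1.78, and 6 were lower in the 3-library fit. Several of these genes were also lower in arterial than in endocardial cells (Nr2f2, Vcam1, Vwf, Icam1, Plvap and Emcn), and some capillary cells had Npr3 at or above its limit. Against the stricter capillary cells 6 of 9 were lower, with a median of -1.38: Nr2f2 differed by -0.99 (adjusted p = 0.0451), Vcam1 by -1.40 and Nrp2 by -1.99, Emcn was not called and Plvap was not abundant enough to be tested. Aplnr, the apelin receptor, was at 19.2, 0 and 0 CPM in arterial cells and 211, 120.2 and 40.6 CPM in capillary cells, and Nrp2, a semaphorin and VEGF-C coreceptor, at 76.7, 82.2 and 76.9 CPM in arterial cells and 316, 373 and 294 CPM in capillary cells (-2.04 ± 0.23 SE, adjusted p = 1.61e-16). For Nrp2 the arterial and capillary values lay far apart in every library. Nr2f2 (COUP-TFII), the venous transcription factor, was at 35.1, 19 and 86.5 CPM in arterial cells and 49.3, 133 and 239.7 CPM in capillary cells (-1.48 ± 0.30 SE, adjusted p = 5.18e-05), with an adjusted p of 0.0581 in the 3-library fit, and the adhesion gene Vcam1 at 11.2, 50.6 and 67.3 CPM in arterial cells and 72.3, 200.3 and 332 CPM in capillary cells (-2.07 ± 0.28 SE, adjusted p = 5.29e-11). Ephb4, the venous receptor of ephrin B2, was not called. Vwf was at 7.99, 108 and 663 CPM in arterial cells and 123, 669 and 1509 CPM in capillary cells (-2.94 ± 0.25 SE, adjusted p = 1.32e-28), and against the stricter capillary cells its difference was -1.78 (adjusted p = 2.37e-07). Plvap was at 4.79, 6.32 and 67.3 CPM in arterial cells and 20.4, 248 and 441 CPM in capillary cells. Both genes are also endocardial, and of the 3 libraries cKit+/DDR2- replicate 2 had the highest values, though arterial Plvap rests on 3, 1 and 7 UMIs.

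Of 14 endocardial genes, 8 were lower and 1 (Bmp4) was higher, against 6 and 0 in the 3-library fit. Of 8 tested against the stricter capillary cells, 2 were lower (Bmp6 and Vwf) and 1 higher. Tmem108, H19 and Gpr182 had 1, 1 and 2 UMIs or fewer in the arterial cells of cKit-/DDR2+ and cKit+/DDR2+/CD45-. In capillary cells Tmem108 was at 18.6, 162 and 308 CPM, H19 at 5.11, 267 and 577 CPM and Gpr182 at 27.4, 91.9 and 189 CPM. None of the 3 was abundant enough to be tested against the stricter capillary cells. Cytl1 differed by -1.84 against all capillary cells and by -0.09 (adjusted p = 0.97) against the stricter ones, and Foxc1 by -1.27 and -0.35 (adjusted p = 0.807). Ptgs1, cyclooxygenase 1, was lower by either comparison (-2.94 and -2.32). Adh1, an alcohol dehydrogenase, and the interferon-induced chemokine Cxcl9 were also among the largest lower differences. Cxcl9 had 0 UMIs in arterial cells of all 3 libraries and was at 12.1, 96 and 40.9 CPM in capillary cells, with an adjusted p of 0.0897 in the 3-library fit.

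Of 12 shear response genes, 0 were higher and 2 lower (Ptgs1 and Aqp1) by limma, 3 and 3 at an unadjusted p under 0.05, and neither Klf2, at 2847, 1992 and 1951 CPM in arterial cells and 2548, 1074 and 1279.9 CPM in capillary cells, nor Klf4 nor Nos3 was called. Of 18 vasoactive genes, 2 were higher (Edn1 and Ace) and 4 lower (Ptgs1, Ednrb, Calcrl and Adm). Of 16 axon guidance genes, 4 were higher (Sema3g, Sema7a, Unc5b and Efnb2) and 2 lower (Sema6a and Nrp2). Of 29 endothelial transcription factors, 3 were higher (Sox18, Mecom and Epas1) and 5 lower (Fli1, Ets2, Foxc1, Nr2f2 and Meox1), against 3 and 2 in the 3-library fit. Of 23 immediate early and dissociation genes, 7 were higher (Fos, Jun, Atf3, Dusp1, Cyr61, Hspa1a and Hspa1b) and 3 lower (Egr1, Nr4a1 and Ctgf). In the 3-library fit 5 were higher and 0 lower (Fos and Atf3 had adjusted p of 0.217 and 0.332, Nr4a1 of 0.995). Hspa1a and Hspa1b are nearly identical copies whose counts may be split between them. Of 13 glycolysis genes tested by limma, 0 were called in either direction, nor at an unadjusted p under 0.05. Over all genes tested 3.46% were called higher and 3.43% lower, so 0 of 13 is near that share. Among 12 junction genes Cldn5 and Gja1 were not called while Jam3 and Cgnl1 were lower.

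**Figure D4:**
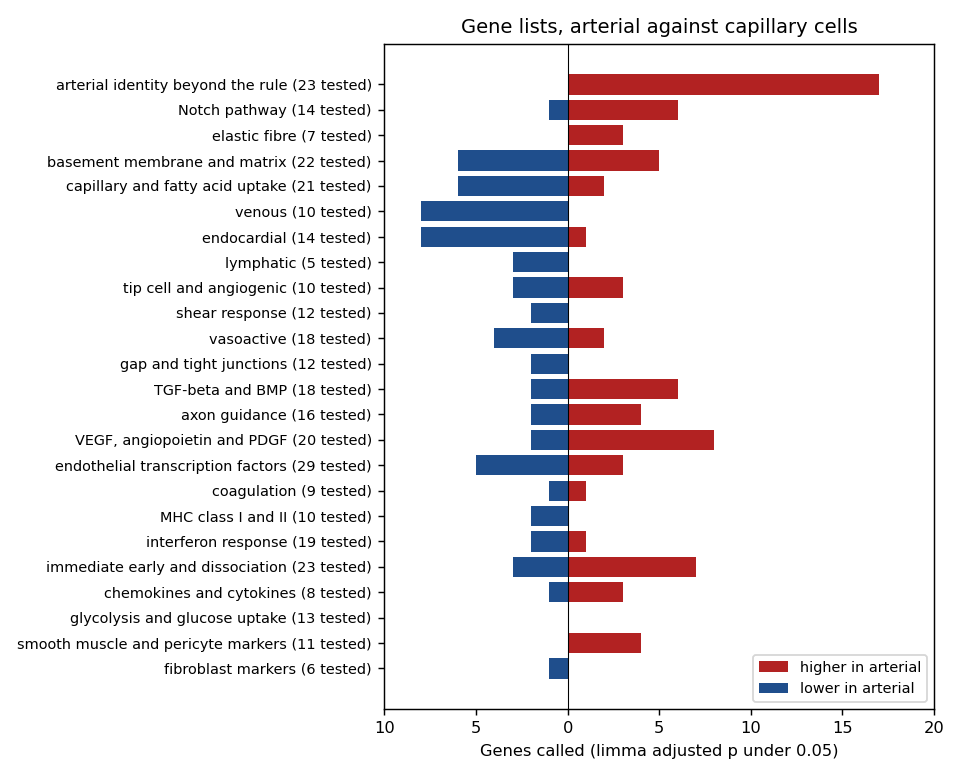
Number of genes called higher (right) or lower (left) in arterial than in capillary cells for each list with at least 5 genes tested. Arterial identity (17 of 23) has the longest bar to the right, and venous (8 of 10) and endocardial genes (8 of 14) the longest to the left.

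Markers of other cell types were read in the same cells. Summed over 14 smooth muscle and pericyte genes, arterial cells had 3344, 1404 and 1922 CPM, against 1265, 664 and 219.9 CPM in capillary cells. Of these, Rgs5 alone made up most of the sum in arterial cells: it was at 2262, 1169.9 and 1479.8 CPM in arterial cells and 899, 474 and 93.8 CPM in capillary cells (1.31 ± 0.19 SE, adjusted p = 6.82e-10). The contractile genes differed by library. Acta2, smooth muscle actin, was at 142, 12.6 and 0 CPM in arterial cells, while Myh11, Tagln, Myl9 and Cspg4 had 0 UMIs in cKit+/DDR2+/CD45-, and Acta2, Myl9 and Cspg4 had 0 in cKit+/DDR2- replicate 2. Of 11 of these genes tested, 4 were called higher (Acta2, Des, Notch3 and Rgs5), with a median of 0.76, and 1 was in the 3-library fit. Cells with at least 2 of 8 mural markers were 17 of 100 arterial cells in cKit-/DDR2+ (17.0%, 95% exact interval 10.2 to 25.8), 1 of 23 in cKit+/DDR2+/CD45- and 2 of 16 in cKit+/DDR2- replicate 2. Without such cells, 186 of the 208 higher and 183 of the 206 lower genes were called again, and Sema3g and Eln had differences of 4.12 and 1.00.

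Fibroblast markers (10 genes) summed to 879, 499.6 and 163 CPM in arterial and 1358, 754 and 1314 CPM in capillary cells. Only arterial cells had to have Pdgfra at 0, and it was seen in 82, 22 and 7 capillary cells. Of 6 fibroblast genes tested by limma, 1 was lower (Dcn) and 0 higher, with a median of -0.59. Against the stricter capillary cells the direction changed: 2 of 5 were higher (Dcn and Lum) and 0 lower, with a median of 0.29. Of 12 leukocyte markers, 1 had UMIs in arterial cells of cKit-/DDR2+ and 3 in cKit+/DDR2- replicate 2, with sums of 4.79 and 106 CPM. The 3 arterial cells of cKit+/DDR2+/CD45+, which entered no test, had UMIs of 6 of these markers. Their sum was 2383 CPM, against 3575 CPM in capillary cells of that library. Haemoglobin transcripts differed most in cKit-/DDR2+, where Hbb-bs was at 279.6 CPM in arterial and 2505 CPM in capillary cells. A single arterial cell, in cKit-/DDR2+, had over 2 times the median UMIs of its library. The part of these other transcripts in the differences above was not tested beyond leaving out cells with mural markers.

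Against endocardial cells of the same libraries (38, 417 and 1177 cells, Npr3 at or above 1.5), arterial cells had more transcripts of most capillary genes tested and fewer of most endocardial ones. In the limma fit of the same 2 libraries, 654 of 6088 genes were higher in arterial cells (10.7%) and 531 lower (8.72%). The 3-library fit gave 712 higher (11.7%) and 575 lower (9.47%) of 6074. Of 19 capillary and fatty acid genes, 16 were higher and 2 lower (Fabp5 and Aqp1), with a median of 3.34 (0.07 over all genes tested). Rbp7 was at 3919, 3927 and 3853 CPM in arterial cells and 98.1, 39.7 and 21.5 CPM in endocardial cells (5.85 ± 0.23 SE, adjusted p = 6.27e-13), and Cxcl12 at 3191, 4035 and 2133 CPM in arterial cells and 177, 18.6 and 13.2 CPM in endocardial cells (5.78 ± 0.42 SE, adjusted p = 3.67e-09). Rgs5 (6.58) and Ly6c1 (6.55) had the largest differences, although Ly6c1 has a near-identical neighbour with which reads may be shared. Sema3g was at 0, 0.211 and 0 CPM and Alpl at 0, 0.211 and 0.889 CPM in endocardial cells, and Vegfc at 0, 15.2 and 15.5 CPM. Sema3g and Alpl were thus near 0 in endocardial cells. Vegfc had 0 UMIs there in cKit-/DDR2+ and was low in the other 2 libraries.

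Endocardial genes were lower in arterial cells for 13 of 15 tested. Npr3 chose the endocardial cells, so this count follows in part from that choice. Smoc1, Tmem108 and H19 had at most 1 UMI in arterial cells of each library of the fit. They passed the abundance filter through the endocardial cells, and could be called only as lower. Cytl1 was at 1.60, 304 and 67.3 CPM in arterial cells and 2713, 2077 and 1675 CPM in endocardial cells (-5.72 ± 0.71 SE, adjusted p = 5.52e-06), the highest arterial value again being in cKit+/DDR2+/CD45-. Igfbp5 was at 49.5, 19 and 48 CPM in arterial cells and 2965, 1519.7 and 1111 CPM in endocardial cells (-5.88 ± 0.21 SE, adjusted p = 5e-13), and Vwf at 7.99, 108 and 663 CPM in arterial cells and 2448, 2114 and 2307 CPM in endocardial cells. Arterial Vwf came nearest to endocardial levels in cKit+/DDR2- replicate 2. Smoc1 and Ahsg had 0 UMIs in the arterial cells of all 3 libraries, while endocardial cells had 235, 315 and 329.5 CPM of Smoc1 and 144, 354 and 378 CPM of Ahsg. Of 23 arterial identity genes, 15 were higher than in endocardial cells and 4 lower (Bmx, Tm4sf1, Clu and Mgp). Bmx was at 32, 44.3 and 67.3 CPM in arterial and 186, 223 and 218 CPM in endocardial cells. Of 30 endothelial transcription factors, 16 were higher and 4 lower (Foxc1, Foxc2, Nr2f2 and Tbx20). Notch1, Fn1, Smad6 and Eln, all called higher against capillary cells, were not called against endocardial cells (-0.15, 0.28, -0.06 and 0.04).

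Arterial cells with and without Gja5, a gene of the rule, were set side by side without a test. Gja5, known from larger arteries, was seen in 18 of the 100 arterial cells of cKit-/DDR2+, 6 of 23 in cKit+/DDR2+/CD45- and 5 of 16 in cKit+/DDR2- replicate 2. In cKit-/DDR2+ the median depth was 5559 UMIs with Gja5 and 5629 without, and values with and without are given with 95% intervals for counting error only, as cells of 1 library are no replicates. The log2 ratios add 5 CPM to each side, and the intervals are taken from UMIs without it. Elastin was at 133 against 42.1 CPM, a log2 ratio of 1.55 (0.65 to 2.65). In the other libraries the Eln ratio was 1.64 and -0.54. Of 12 smooth muscle and pericyte genes, 4 were 2-fold higher (Acta2, Des, Higd1b and Tagln) and 1 lower (Abcc9) in the Gja5 cells of cKit-/DDR2+: Des was at 188 against 40.1 CPM, Tagln at 329 against 92.3 CPM, and Acta2 at 274 against 108 CPM. Des, Tagln and Acta2 had 0 UMIs in the Gja5 cells of the other libraries. Gkn3, a marker of arteries, had 6 UMIs in the 18 cells and 1 UMI in the 82.

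Fn1 was at 368 against 203 CPM, a log2 ratio of 0.85 (0.33 to 1.37), Igfbp4 at 392 against 181 CPM, Pdgfa at 133 against 48.2 CPM and Dll4 at 353 against 209 CPM. The connexin 45 gene Gjc1 was at 125 against 58.2 CPM. Its direction was the opposite in the other libraries, where Gjc1 was lower by 2-fold or more when Gja5 was seen (6 and 5 cells). Of the capillary and fatty acid list, 18 genes reached 50 CPM on one side in cKit-/DDR2+, and all 18 had a lower value in the Gja5 cells (46.8% of all 3861 genes measured did), with a median log2 ratio of -0.50 (0.03 over all genes). At 2-fold or more, 4 were lower (Lpl, Rgcc, Sgk1 and Aqp1) and 0 higher, where 5.23% of all genes were lower and 5.23% higher. In cKit+/DDR2+/CD45- 13 of 19 were 2-fold lower and 1 higher (21.8% and 16.8% of all genes), and in cKit+/DDR2- replicate 2 it was 4 and 1 of 16 (20.8% and 18.9%), from 6 and 5 Gja5 cells. In cKit-/DDR2+ Lpl was at 157 against 423 CPM, a log2 ratio of -1.41 (-2.17 to -0.77), Rgcc, a cell cycle regulator, at 298 against 749 CPM, a log2 ratio of -1.32 (-1.85 to -0.85), and Aqp1 at 15.7 against 132 CPM (2 and 66 UMIs), a log2 ratio of -2.73 (-6.15 to -1.17). Aqp1 had a ratio of 2.07 (-0.44 to 5.82) in cKit+/DDR2+/CD45-. Fabp4, the fatty acid binding protein, was at 8329 against 11742 CPM, a log2 ratio of -0.50 (-0.59 to -0.40), and its ratio was -1.13 and -0.46 in the other libraries. The Lpl ratio was -4.23 (-9.83 to -1.97, from 1 and 58 UMIs) in cKit+/DDR2+/CD45- and 0.29 (-1.08 to 1.58) in cKit+/DDR2- replicate 2. Sema3g, Edn1 and Alpl were at 345 against 257 CPM, 94 against 124 CPM and 306 against 341 CPM.

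**Figure D5:**
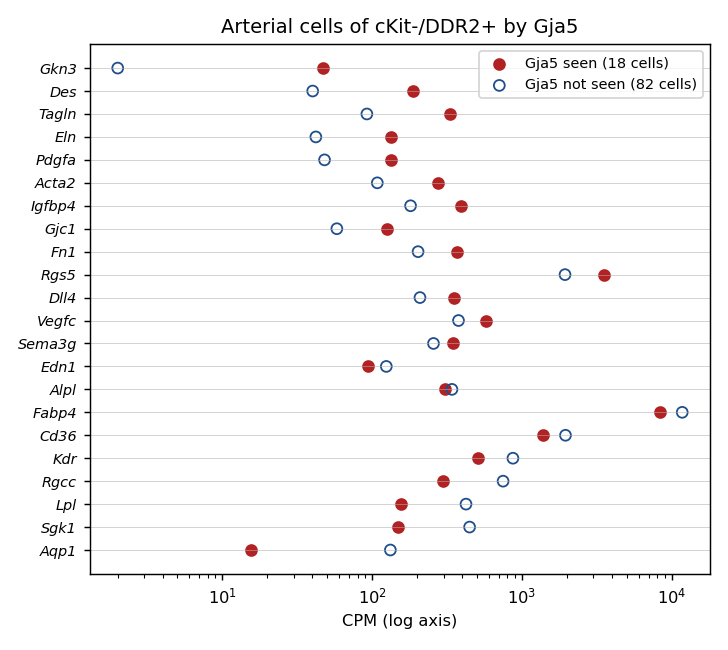
CPM (log axis) of 22 genes in arterial cells of cKit-/DDR2+ in which Gja5 was seen (filled, 18 cells) or not (open, 82 cells). Eln, Des, Tagln and Acta2 lie to the right in the Gja5 cells, and Lpl, Rgcc, Sgk1 and Aqp1 to the left. The genes shown were chosen after their values were seen.

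Between sorts, the arterial cells of cKit+/DDR2+/CD45- (23 cells) and cKit-/DDR2+ (100 cells) could be set side by side, without a test, since each sort is 1 library. Each pair of values below gives cKit+/DDR2+/CD45- first. Among 3856 genes that reached 50 CPM on one side, 169 had a ratio of 2 or more towards cKit+/DDR2+/CD45- (4.38%) and 287 towards cKit-/DDR2+ (7.44%). The ratio in capillary cells of the same libraries is given beside each value. Ratios add 5 CPM to each side, while their intervals are taken from UMIs without it. For genes with few UMIs a ratio can therefore lie near one end of its interval. Cytl1 was at 304 against 1.60 CPM (48 UMIs and 1 UMI). Its log2 ratio was 5.55 (counting interval 5.02 to 12.90), and 2.49 in capillary cells. The MHC class II gene H2-Aa was at 114 against 3.20 CPM (18 and 2 UMIs, 3.86, interval 3.09 to 8.31; capillary 1.22). The protease gene Ctsh, at 101 CPM in cKit+/DDR2+/CD45-, had 0 UMIs in cKit-/DDR2+. In cKit+/DDR2- replicate 2 the arterial cells had 67.3 CPM of Cytl1 and 663 of Vwf, the last far above the 108 and 7.99 CPM of the other 2 libraries.

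Interferon response genes were 2-fold higher in cKit+/DDR2+/CD45- for 9 of 14 measured and lower for 0, with a median log2 ratio of 1.17 in arterial and 1.34 in capillary cells (-0.12 over all genes measured in either class). The GTPase gene Iigp1 was at 316 against 65.5 CPM, a log2 ratio of 2.19 in arterial and 2.62 in capillary cells. In cKit+/DDR2- replicate 2 the arterial cells had 48 CPM of it. Endocardial genes were 2-fold higher for 6 of 7 (Bmp4, Bmp6, Cgnl1, Cytl1, Gata6 and Vwf; median 2.19, and 1.07 in capillary cells). These values may rest on few cells. Within cKit+/DDR2+/CD45-, 7 of 8 endocardial genes were 2-fold higher in the 6 arterial cells with Gja5 than in those without (16.8% of all genes were), with a median of 4.02. In cKit+/DDR2- replicate 2, 0 of 7 were higher and 6 lower in the cells with Gja5.

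Smooth muscle and pericyte genes were 2-fold lower in arterial cells of cKit+/DDR2+/CD45- for 10 of 12, with a median of -2.33, and -0.75 in capillary cells. Tagln was at 141 CPM in cKit-/DDR2+ with 0 UMIs in cKit+/DDR2+/CD45-, Acta2 was at 12.6 against 142 CPM (2 and 89 UMIs, -3.06, interval -6.56 to -1.60), and Notch3 at 12.6 against 113 CPM (2 and 71 UMIs, -2.75, interval -6.24 to -1.26). Gsn, a gene abundant in fibroblasts, was at 19 against 451 CPM (3 and 282 UMIs, -4.25, interval -6.86 to -3.01; capillary -4.28). The heat shock gene Hsph1 (3 and 85 UMIs, -2.55, interval -5.15 to -1.24; capillary -1.89) and the actin regulator Vasp (3 and 77 UMIs, -2.42, interval -5.01 to -1.10; capillary -0.45) were also lower. Of 22 arterial identity genes, 2 were 2-fold higher (Cdh13 and Clu) and 0 lower, with a median of 0.22 (-0.49 in capillary cells). Sema3g had a ratio of 0.64 (0.22 to 1.06), Alpl of -0.14 (-0.62 to 0.32), Vegfc of -0.68 (-1.20 to -0.21) and Edn1 of 0.23 (-0.52 to 0.94).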

How the data were processed

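Values in the deposited tables are on a natural log scale: ln(1 + UMIs per 10000) in each cell, as the values themselves show. The authors made them with Cell Ranger on mm10 and Seurat 4.0.4, per the submitters' processing notes. Genes missing from a table were taken as 0. Whole UMIs were recovered from the smallest step of each cell (100% of values whole within 0.01).

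Cells were chosen by the stated rules in each library, and no doublet caller was run. The members, gene lists and comparisons were chosen with earlier results of these data known. UMIs were summed per library and class and scaled to CPM. log2(CPM + 5) was fitted with limma 3.58.1 (trend; R 4.3.3) with the library as a block, for genes with a mean of at least 20 CPM, leaving out the 14 genes of the rules. P-values were Benjamini-Hochberg adjusted over all genes tested. The tested genes were read in the same cells as the genes of the rules. Since 2 libraries had at least 20 arterial cells, a fit with at least 10 cells (3 libraries) was set beside it. The script was tested on simulated data, with a spread set by the simulation. There the 2-library fit against capillary cells recovered 17 of 96 changes of 2-fold (17.7%) and 86 of 90 of 4-fold (95.6%). A gene that was not called can therefore still differ by 2-fold. Comparisons between sorts or by Gja5 have no test, and their ratios add 5 CPM to each side. The intervals of these ratios are taken from UMIs without the 5 CPM. These intervals, and those of shares (Clopper-Pearson, 95%), cover counting error only.

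Named genes were the 15 largest called differences each way against capillary cells and the 10 largest against endocardial cells, with at least 50 CPM in the higher class and the same side in every library. Between sorts they were the 6 largest ratios in each direction (minimum 100 CPM and 10 UMIs on the higher side). Members of 29 gene lists could also be named. Mitochondrial, ribosomal, haemoglobin, sex-linked and predicted genes were not ranked, and some genes that these rules select are not reported here. Alternatives were other pseudocounts, filters, scalings, cell limits and comparison cells, thinning to 4000 UMIs and leaving out libraries. Python 3.11.15, numpy 2.4.6, scipy 1.17.1, pandas 2.3.3 and matplotlib 3.10.9 were used.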

Additional observations from a re-analysis of the deposited data

Results flagged for a closer look

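For Gucy1a1, a subunit of the nitric oxide receptor found in mural cells, the arterial cells differed from capillary cells by 2-fold or more in opposite directions in the libraries compared, and the difference between the libraries was not tested. Its log2 difference was 1.27 in cKit-/DDR2+ (56 UMIs in arterial cells, counting interval of the ratio 0.93 to 1.83) and -1.53 in cKit+/DDR2+/CD45- (2 UMIs, interval -4.91 to 0.01, which reaches 0). The differences add 5 CPM to each side, and the intervals do not. Cells with at least 2 of 8 mural markers were 17 of the 100 arterial cells of the first library and 1 of the 23 of the other, and their part in this value was not tested.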

How the results depend on the processing

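The count of genes called depended on the libraries and the block. Against capillary cells 208 genes were higher and 206 lower. With at least 10 cells per class (3 libraries) there were 108 and 80, with at least 3 of the 5 genes and 10 cells 71 and 47, and after thinning to 4000 UMIs with 10 cells 47 and 29. Without the library block, that is with no replicate block, there were 4 and 5. A filter at a mean of 50 CPM gave 135 lower genes, and a mean over cells of the deposited natural log values 124. Leaving out each of the 3 libraries in turn gave 42 to 217 higher and 33 to 239 lower genes, the lowest without cKit+/DDR2+/CD45-. Against endocardial cells 654 were higher and 531 lower, 383 and 338 after thinning, 362 and 304 without the block, and 497 to 654 and 382 to 531 leaving out each library. The causes were not tested. The arterial share in cKit+/DDR2- replicate 1 was 0% after thinning and with at least 3 of the 5 genes. Between sorts, at least 100 CPM left 66 higher and 91 lower genes.

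No gene named for the largest differences reversed its direction. Such genes had to be called in the 2-library fit and be on the same side in all 3 libraries. Most settings refit these libraries, so the lack of reversals, and in part the calls counted below, follow from that choice. The direction that held more genes changed in some settings: median-of-ratios scaling gave 178 higher and 214 lower against capillary cells and 554 and 618 against endocardial cells, and a filter at a mean of 1 CPM 208 and 254 against capillary cells. Of 30 genes named against capillary cells, 27 were called in 3 libraries, 6 without the block and 18 in every other setting that tested them. All 20 named against endocardial cells were called in each of the 15 settings that tested them. Settings in which a gene was not abundant enough to be tested, such as the filter at a mean of 50 CPM, were passed over in these counts. Requiring 3 of the 5 genes, or thinning, with at least 20 cells left 1 library and was not run, and leaving out a cKit+/DDR2- library does not apply to the comparison between sorts, which used neither. Scaling, pseudocount and comparison with all other endothelial cells left the counts within 1.5 times. With 16 to 100 arterial cells per library, a gene at a few CPM could not be told from 0.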
